A study of Homo sapiens with 12 samples.

Results

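The LINC RNAs described here were the genes of the deposited table whose symbol starts with LINC followed by digits and that reached 1 TPM or more in at least 2 of the 12 libraries. TPM is a level corrected for gene length and scaled to the same total in every library. Such a symbol was found for 2106 of the 63568 genes listed, and 153 of these, with 152 symbols because LINC01238 stood for 2 gene identifiers, reached the level. Of the others 1252 were listed at 0 in every library, 701 were above 0 in some library, and 21 of those 701 reached 1 TPM in exactly 1 library. RNA was sequenced from LNCaP cells, an established line from a lymph node metastasis of prostate carcinoma that depends on androgen signalling, after siRNA against SMARCA4, the gene of the chromatin remodelling ATPase BRG1. The groups were LNCaP cells given a non-targeting siRNA pool (si-NT) for 72 h (n = 2) or 144 h (n = 2), and LNCaP cells given SMARCA4 siRNA (BRG1 depleted) for 72 h (n = 4) or 144 h (n = 4). Cells taken at 144 h had been transfected again at 72 h, so all 12 libraries carried siRNA and those at 144 h had received it on more than 1 occasion. Each BRG1 depleted group held 2 libraries of each of 2 siRNAs, called siRNA 2 and siRNA 3 here as in the table. The titles number them 1 and 2, no source used here says which is which, and 1 library at 72 h bears both numbers in its labels. Nothing in the labels said that the libraries came from separate cultures, so the p-values measure the spread between these libraries, which may be technical.

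LINC is the name given to long intergenic non-coding RNAs that have no name from a known function. Such RNAs are transcribed by RNA polymerase II, mostly spliced and polyadenylated, made at low levels, and often limited to few cell types. Their promoters and enhancers are opened and closed by nucleosome remodellers such as the BRG1 complexes, and some of them act on genes beside them while others act elsewhere or have no known role.

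SMARCA4 itself was read at 97.01 and 73.44 TPM in the si-NT libraries at 72 h and at 17.48 to 21.7 TPM in the 4 BRG1 depleted libraries. The later values were 94.5 and 106.59 TPM against 11.42 to 17.44 TPM at 144 h. The groups did not overlap, and depletion took away 77.3% of the mean RNA level at 72 h and 84.9% at 144 h. By the paper's Western blots, BRG1 protein was reduced clearly less at 72 h than at 144 h, so the times differ in depletion of the protein. Of the luminal prostate markers, KLK3 was at 241.17 TPM or more, KRT8 at 303.36 TPM or more and KRT18 at 314.89 TPM or more in every library, whereas the basal markers KRT5, KRT14 and TP63 stayed at or under 0.33 TPM. The lines of 3 leukocyte markers were at or under 0.87 TPM, and of 3 stromal markers COL1A2 was listed at 0 throughout while COL1A1 was read at up to 9.11 TPM. In bulk RNA, fewer cells of a type and less RNA per cell cannot be told apart. Of the 4 BRG1 depleted libraries at 72 h, siRNA 2 replicate 2 stood farthest from the others. It was an outlier (Dixon's test) among the 4 libraries for 11 of the 153 LINC RNAs, or 7.19%, and for 3.62% of the 16337 genes tested.

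Most LINC RNAs were at low levels. The mean over 12 libraries had a median of 2.39 TPM and quartiles of 1.11 and 5.57 TPM, beside a median of 11.6 TPM for the 16337 genes that passed the same filter. The mean was under 1 TPM for 33 of the RNAs, from 1 to under 5 TPM for 78, from 5 to under 10 TPM for 23 and at 10 TPM or more for 19. The 10 highest held 37.1% of the summed level. At 72 h the 153 RNAs summed to 785.4 ± 33.5 TPM (SD, n = 2) without depletion and to 802.5 ± 74.3 TPM (SD, n = 4) with it. At 144 h the sums were 726.4 ± 36.6 TPM (SD, n = 2) and 735.4 ± 40.3 TPM (SD, n = 4), so both differences were smaller than the SDs. Of the RNAs 86 were at 1 TPM or more in all 12 libraries and 7 were listed at 0 in at least 1.

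**Figure D1:**
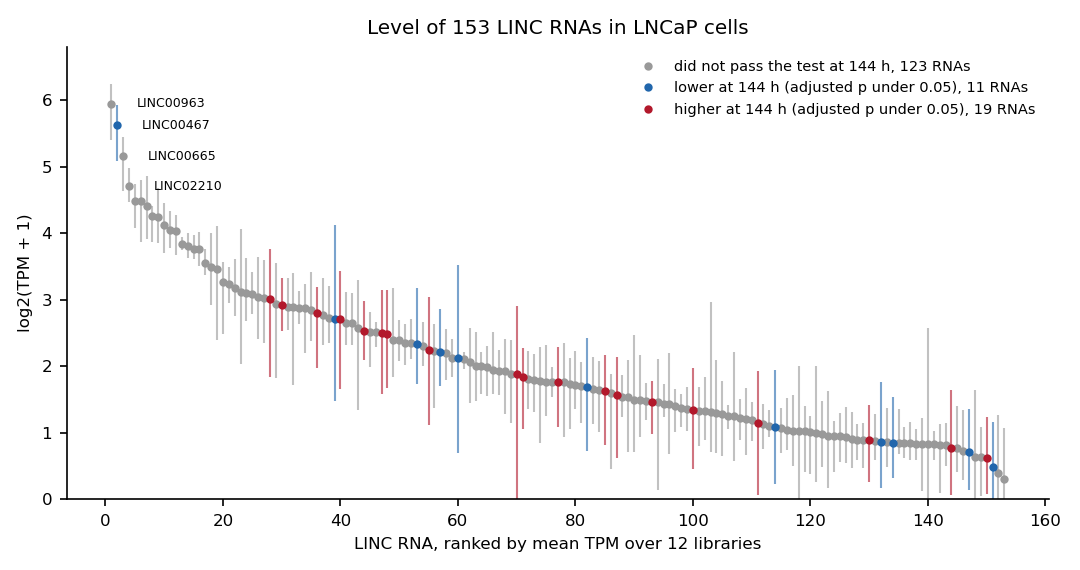
Level of each of the 153 LINC RNAs as log2(TPM + 1), ranked by the mean over the 12 libraries. Points are the mean and vertical lines run from the lowest to the highest library. Colour gives the call at 144 h, and of the 30 RNAs that passed LINC00467 is at rank 2 while the other 29 lie between LINC02593 at rank 28 and LINC01093 at rank 151.

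Just inside the limit were LINC00937, LINC01465 and LINC02982, whose second highest library held 1.01, 1.03 and 1.04 TPM. Just outside were LINC00106, LINC00898 and LINC01337, at 0.97, 0.96 and 0.96 TPM.

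In the GENCODE annotation lifted to GRCh37, 145 of the 153 were long non-coding RNA genes, 5 transcribed unprocessed pseudogenes, 1 a transcribed unitary pseudogene (LINC02210), 1 a processed pseudogene (LINC00328-2P) and 1 protein-coding (LINC00999). They had a median of 4 exons in the longest exon chain. By position 12 started within 1 kb of the start of a protein-coding gene on the opposite strand, 15 others overlapped a protein-coding gene, 82 lay within 50 kb of a protein-coding gene and 44 lay farther away. The gene body of 84 overlapped some other gene and that of 69 overlapped none. How the counting used strand is not given in the sources used here, so reads of a LINC RNA and of an overlapping gene cannot be told apart in this table. A stretch of 300 bases or more with 97% or more identity to a transcript of a gene elsewhere was found for 24 of the 153, for which the counting could have split or dropped reads.

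The highest LINC RNA was LINC00963 (chr9:132239225-132275966, plus strand, GRCh37), an RNA described in the move of prostate cancer cells to androgen independence. It was at 61.1 and 75.1 TPM in si-NT against 57.21 to 72.27 TPM after depletion at 72 h, and at 65.1 and 57.9 TPM against 41.35 to 66.03 TPM at 144 h, and the groups overlapped at both times. LINC00467 (chr1:211556078-211608912), for which a small peptide has been described, ranked next. After it came LINC00665 (mean 34.6 TPM), LINC02210 (25.1 TPM), LINC02987 (21.39 TPM), LINC02197 (21.29 TPM), LINC00662 (20.14 TPM), LINC01106 (18.07 TPM), LINC01278 (17.92 TPM) and LINC02482 (16.43 TPM). LINC02987 and LINC02197 differed by less than the spread of either between libraries. Of these 10, LINC00467 passed the test at 144 h and the other 9 did not, with both siRNAs pooled. None of the 10 passed that test at 72 h. LINC00665 shares a stretch of 2999 bases with LINC01535 at 98.3% identity, and LINC01106 shares 2256 bases with LINC01123 at 99.5%, so the split of reads within these pairs is uncertain.

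Among 18 LINC RNAs listed for a literature in prostate or other cancers, LINC00963, LINC00467, LINC00665, LINC00662, LINC01503 and LINC00511 were members. LINC00844, known as an androgen-induced RNA, reached at most 0.58 TPM, LINC00304 at most 0.84 TPM and LINC01088 at most 0.26 TPM, so none of them entered the test. LINC00993, LINC00958, LINC01116, LINC00470 and LINC00907 reached at most 0.19 TPM, and LINC00261 was listed at 0. LINC01138, LINC00473 and LINC00908 were not analysed here. With both siRNAs pooled, LINC01503, an RNA described in squamous carcinoma, was higher at 144 h and LINC00467 was lower. The other 4 members did not pass at either time in that test. With 1 siRNA against si-NT at 144 h, limma called LINC00963 lower (siRNA 3, -0.48, adjusted p = 0.0293) and LINC00665 lower (siRNA 2, -0.49, adjusted p = 0.0192). It called LINC00662 higher (siRNA 3, 0.70, adjusted p = 0.0377), and LINC00511 was called with neither siRNA.

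At 72 h of depletion few LINC RNAs passed the test, which does not show that the others were unchanged. With limma on log2(TPM + 1) over all 16337 genes, and a call at an adjusted p under 0.05, 4 of the 153 were lower (2.61%, against 0.557% of all genes tested) and 1 was higher (0.654%, against 1.13%). Levels differ, and among genes with a mean under 5 TPM 2.7% of 111 LINC RNAs were lower. The shares at that level were 0.803% of all genes and 1.28% of protein-coding genes. These shares were not tested against each other. LINC01133, LINC00161, LINC02198 and LINC01354 fell and LINC00342 rose. An RNA that reaches 1 TPM in 1 group only enters the test through the group where it is high, which favours a change in that direction. LINC02198 and LINC01354 reached 1 TPM in si-NT libraries only. Without the filter 3 were lower and 1 was higher. All fold changes below are on the log2(TPM + 1) scale, which understates the change of RNAs near or under 1 TPM. The median log2 fold change of the 153 was 0.06, beside 0.06 for all genes tested. The groups did not overlap for 18 RNAs that were higher (11.8%, against 16.3% of all genes) and 12 that were lower (7.84%, against 6.93%). These calls rested on few libraries, and leaving out 1 library at a time left between 1 and 5 lower and between 0 and 1 higher. Without the outlying siRNA 2 replicate 2 of 72 h, 1 was lower and 1 was higher. Over all genes that fit called 57 lower and 87 higher, against 91 and 184 with every library. That was not particular to this library. Without siRNA 2 replicate 1 of 72 h the counts were also 1 and 1, beside 35 and 114 over all genes. Without siRNA 3 replicate 2 they were 1 and 0, beside 33 and 64 over all genes. With only the 6 libraries of 72 h in the fit limma called 0 of the 153, with 21 at an unadjusted p under 0.05, and over all genes it called 8 lower and 10 higher.

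At 144 h, 11 of the 153 were lower (7.19%, against 10.8% of all genes tested) and 19 were higher (12.4%, against 13.6%). The median log2 fold change was 0.07 over the 153 and 0.03 over all genes. In every one of the 30 the BRG1 depleted and si-NT libraries did not overlap. Since the 30 were chosen by a test on these same libraries, that is favoured by the choice and adds no support. Over all 153, calls or not, the groups did not overlap for 35 RNAs that were higher (22.9%, against 26.1%) and 30 that were lower (19.6%, against 22.5%). The split depended on the scaling. With median-of-ratios factors 15 were lower and 20 higher, and with quantile normalisation 20 were lower and 19 higher. Over all genes these scalings gave 2096 lower and 2260 higher, and 2256 lower and 2165 higher, against 1761 and 2222 as reported. With the ERCC spike-ins held equal, which moved the median of all genes to -0.31, 7 were lower and 1 was higher, and of all genes 613 were lower and 139 higher. With either si-NT library of 144 h left out, which left 1 in that group, fewer LINC RNAs passed, and fewer of all genes passed too. Without BRG1 depleted 144 h siRNA 2 replicate 1 the higher count was 11, and without its replicate 2 it was 12. Over all genes those higher counts were 1803 and 1812, against 2222 with every library. A rise below is thus a rise relative to the summed TPM of the library, not to the total RNA to which the spike-ins were added.

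**Figure D2:**
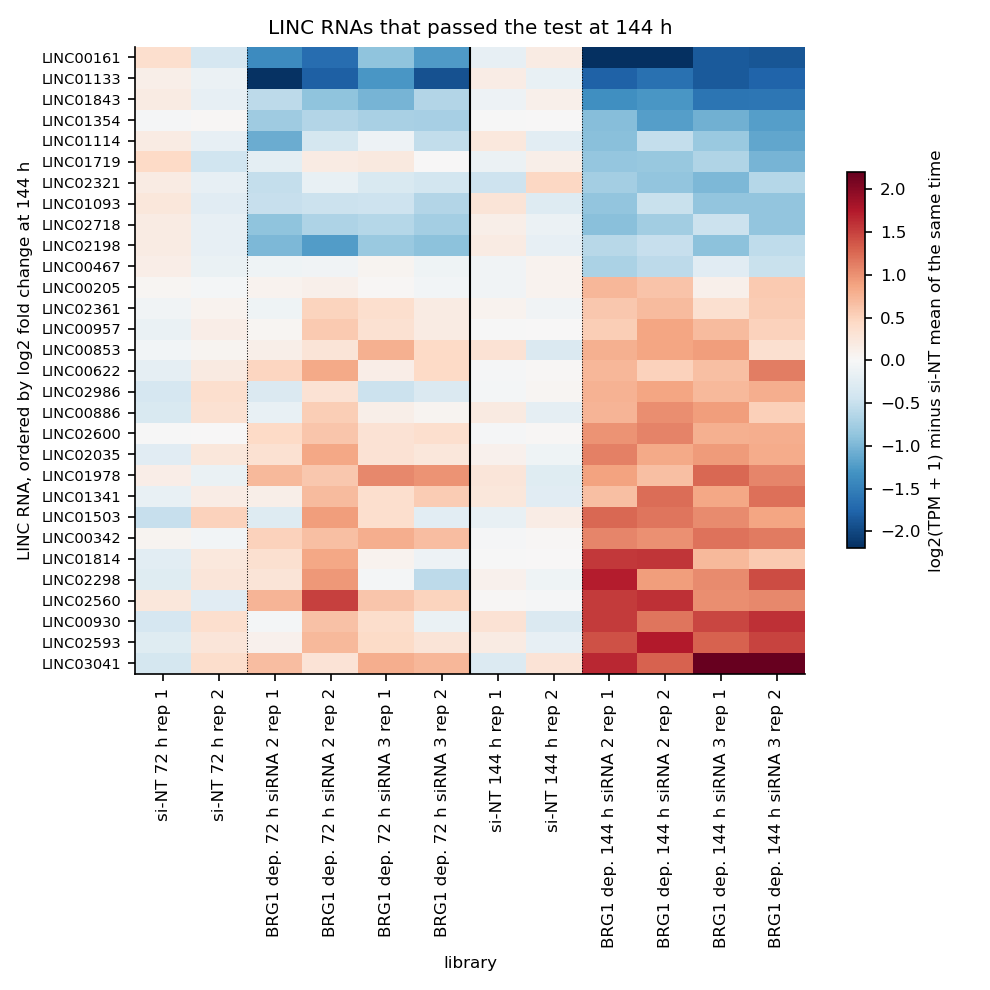
The 30 LINC RNAs that passed at 144 h (rows, ordered by log2 fold change) in the 12 libraries (columns). Colour is log2(TPM + 1) minus the si-NT mean at that time, blue lower and red higher, and in the 144 h block all 11 lower RNAs were below and all 19 higher RNAs above both si-NT libraries. The RNAs were chosen by the test on these libraries, which favours such a separation.

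The RNA with the largest fall at 144 h on the log2(TPM + 1) scale was LINC00161 (chr21:29911640-29912677, plus strand), a gene of 2 exons with no protein-coding gene within 100 kb. It was at 10.5 and 5.82 TPM in si-NT and at 2.41, 1.78, 3.81 and 2.72 TPM after depletion for 72 h, siRNA 2 before siRNA 3. By 144 h the values were 12.42 and 16.35 TPM against 2.3, 2.33, 3.23 and 3.15 TPM. Every BRG1 depleted library was thus below every si-NT library at its time. Depletion lowered the mean by 67.2% at 72 h (log2 fold change -1.30 ± 0.25 SE, adjusted p = 0.0288) and by 80.9% at 144 h (-2.03 ± 0.25 SE, adjusted p = 0.000333). In percent of the si-NT mean, 4 RNAs at lower levels fell farther, namely LINC01133 (85.2%), LINC01354 (87.9%), LINC01843 (88.3%) and LINC01093 (91.4%). An unnamed gene on the opposite strand overlaps LINC00161.

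LINC01133 (chr1:159927825-159954540, plus strand), an RNA described as a binder of the splicing factor SRSF6, fell at both times. It was at 10.52 and 8.7 TPM in si-NT and at 1.34, 2.04, 3.34 and 1.81 TPM after depletion at 72 h. At 144 h the values were 5.5 and 4.17 TPM against 0.69, 0.85, 0.62 and 0.7 TPM. The si-NT level itself was lower at 144 h than at 72 h, by 0.87 ± 0.25 SE on the log2 scale, which did not pass the test (adjusted p = 0.974). The log2 fold change was -1.79 ± 0.21 SE at 72 h (adjusted p = 0.00303) and -1.76 ± 0.21 SE at 144 h (adjusted p = 0.000343), while the mean was 77.8% and 85.2% lower. With each siRNA set against the shared si-NT libraries, LINC01133 was the LINC RNA called with both siRNAs at 72 h, at -1.99 with siRNA 2 and -1.60 with siRNA 3.

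LINC01843 (chr5:133842243-133844921, plus strand) overlaps no other gene and lies 15082 bp from JADE2. Its level was 2.43 and 1.66 TPM in si-NT and 1.02, 0.64, 0.49 and 0.94 TPM after depletion at 72 h, when it did not pass (log2 fold change -0.78 ± 0.19 SE, adjusted p = 0.0732). Later its level was 2.29 and 2.84 TPM against 0.39, 0.46, 0.17 and 0.18 TPM at 144 h (-1.46 ± 0.19 SE, adjusted p = 0.000513). The groups did not overlap at either time. LINC01354 (chr1:234663633-234667549, minus strand) was close to 1 TPM in si-NT and far under it after depletion. It reached 1 TPM in si-NT libraries only, so it entered the test through the group where it was high. Its values were 1.15 and 1.24 TPM against 0.27, 0.41, 0.34 and 0.32 TPM at 72 h, and 1.54 and 1.56 TPM against 0.33, 0.1, 0.22 and 0.1 TPM at 144 h. The mean was 87.9% lower at 144 h (-1.11 ± 0.15 SE, adjusted p = 0.000695), and at 72 h the log2 fold change was -0.72 ± 0.15 SE (adjusted p = 0.041).

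The promoters of the 3 RNAs with the largest falls on the log2(TPM + 1) scale are shown as the sequence over which a remodeller could act, 250 bases before and 50 after the start that RefSeq gives, 5′ to 3′ on the strand of the gene. They are RefSeq promoters of GRCh38.p14, each found without a mismatch in GRCh37 at chr21:29911390-29911689, chr1:159930764-159931063 and chr5:133841993-133842292, all on the plus strand. Capitals mark AGAACA, the repeat unit of the androgen response element. It was the only motif searched that these windows held, in LINC00161, from 81 bases before the start.
LINC00161: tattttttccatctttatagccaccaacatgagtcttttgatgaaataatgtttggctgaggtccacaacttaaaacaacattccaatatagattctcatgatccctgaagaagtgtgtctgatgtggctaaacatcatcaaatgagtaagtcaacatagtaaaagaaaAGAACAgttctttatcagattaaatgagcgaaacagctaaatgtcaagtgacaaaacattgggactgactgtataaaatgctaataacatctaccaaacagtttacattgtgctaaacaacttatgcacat
LINC01133: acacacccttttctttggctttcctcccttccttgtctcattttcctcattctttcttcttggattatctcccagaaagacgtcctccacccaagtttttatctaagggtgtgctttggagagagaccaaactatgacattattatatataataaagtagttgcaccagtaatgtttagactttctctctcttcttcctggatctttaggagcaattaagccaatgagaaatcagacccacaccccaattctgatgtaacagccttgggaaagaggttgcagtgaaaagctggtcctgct
LINC01843: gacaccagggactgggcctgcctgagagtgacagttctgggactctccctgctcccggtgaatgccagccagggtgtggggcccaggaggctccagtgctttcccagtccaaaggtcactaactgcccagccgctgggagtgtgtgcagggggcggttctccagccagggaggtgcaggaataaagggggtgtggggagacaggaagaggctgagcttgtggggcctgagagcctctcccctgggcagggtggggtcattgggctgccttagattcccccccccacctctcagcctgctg
The RefSeq start was the GENCODE gene start for LINC00161 and LINC01843, and lay 3189 bp inside the GENCODE gene for LINC01133. The windows differed in base composition, with 33.3% G and C in LINC00161, 41.3% in LINC01133 and 64.7% in LINC01843.

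The other 7 RNAs that fell at 144 h fell less on the log2(TPM + 1) scale. LINC02198 (0.51, 0.27, 0.69 and 0.6 TPM after depletion against 2.38 and 1.63 TPM in si-NT at 72 h) had also passed at 72 h, at -0.98 ± 0.20 SE (adjusted p = 0.0335). The values at 144 h were 0.38, 0.48, 0.12 and 0.42 TPM against 1.37 and 0.86 TPM (-0.65 ± 0.20 SE, adjusted p = 0.0337). LINC02198 too reached 1 TPM in si-NT libraries only. LINC02718 was at 1.58 and 1.14 TPM in si-NT and at 0.24 to 0.7 TPM after depletion at 144 h (-0.76 ± 0.19 SE). No protein-coding gene lies within 100 kb of LINC02718, and the one nearest to LINC02198, SLC30A5, was at -0.04 (adjusted p = 0.842). LINC01114 (2.71 TPM in si-NT and 1.05 TPM after depletion on average, -0.86), LINC01719 (5.65 and 2.71 TPM, -0.84) and LINC02321 (5.92 and 2.79 TPM, -0.80) fell by between 52.0% and 61.3%. With 1 library at a time left out, the log2 fold change ran from -1.095 to -0.616 for LINC01114 and from -0.966 to -0.718 for LINC01719. Each of the 3 RNAs lost its call without si-NT 144 h replicate 2, a fit in which fewer of all genes passed too. LINC02321 rested most on that library, since si-NT held 3.81 and 8.02 TPM, and its log2 fold change was -0.35 without replicate 2 and -1.26 without replicate 1. LINC01719 holds an 869-base stretch with 99.2% identity to a gene elsewhere, and 1 of its si-NT libraries at 72 h was as low as the depleted libraries, so that its log2 fold change there was 0.05. LINC01093 was listed at 0 in 3 of the 4 depleted libraries at 144 h and at 0.3 TPM in the remaining library, against 1.23 and 0.51 TPM in si-NT, and without si-NT 144 h replicate 1 it did not pass (-0.50, adjusted p = 0.252, against -0.78 with all libraries).

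LINC00467 was the abundant RNA among those that fell. It was at 59.7 and 49.05 TPM in si-NT and at 50.63, 51.08, 56.47 and 50.69 TPM after depletion at 72 h, with a log2 fold change of -0.05 ± 0.12 SE. The 144 h values were 51.33 and 56.88 TPM against 33.01, 35.99, 45.06 and 38.39 TPM, a mean 29.6% lower (-0.50 ± 0.12 SE, adjusted p = 0.0138). The groups overlapped at 72 h and not at 144 h, and the difference between the times did not pass (adjusted p = 0.358). The pseudogene SNX25P1 overlaps it on the same strand.

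The RNA with the largest rise on the log2(TPM + 1) scale was LINC03041 (chr9:16203933-16410988, minus strand), which overlaps BNC2 on the same strand. It was at 0.97 and 2.4 TPM in si-NT and 3.14, 2.2, 3.51 and 3.28 TPM after depletion at 72 h. It was then listed at 0 and at 0.53 TPM in si-NT, and at 2.89, 2.05, 4.66 and 6.48 TPM after depletion, at 144 h (1.94 ± 0.34 SE, adjusted p = 0.00262). The groups overlapped at 72 h and were apart at 144 h, where the si-NT level was also lower than at 72 h. BNC2 itself was at a mean of 0.025 TPM or less in every group.

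LINC02593 (chr1:852245-856396, minus strand) overlaps no other gene. It was at 3.9 and 6.14 TPM in si-NT and 5.3, 8.68, 6.91 and 6.17 TPM after depletion at 72 h (0.37 ± 0.21 SE, adjusted p = 0.451). At 144 h it was at 3.6 and 2.56 TPM against 9.69, 12.51, 8.9 and 10.34 TPM, a mean 3.36 times as high (1.48 ± 0.21 SE, adjusted p = 0.000725). Among the 153 it had the lowest adjusted p for a difference between the times, 0.248, which did not pass. LINC00930 (chr15:93111047-93117759, minus strand) was at 2.39 and 1.16 TPM in si-NT and 6.83, 5.09, 6.46 and 7.22 TPM after depletion at 144 h (1.44 ± 0.28 SE, adjusted p = 0.00377). At 72 h its groups overlapped, at 1.46 and 3.12 TPM against 1.88 to 3.96 TPM.

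The promoters of the pair with the largest rises on that scale are shown for comparison with those above. In GRCh37 they lie at chr9:16276262-16276561 and chr1:855023-855322, both on the minus strand, and neither held any motif searched, so no base is in capitals.
LINC03041: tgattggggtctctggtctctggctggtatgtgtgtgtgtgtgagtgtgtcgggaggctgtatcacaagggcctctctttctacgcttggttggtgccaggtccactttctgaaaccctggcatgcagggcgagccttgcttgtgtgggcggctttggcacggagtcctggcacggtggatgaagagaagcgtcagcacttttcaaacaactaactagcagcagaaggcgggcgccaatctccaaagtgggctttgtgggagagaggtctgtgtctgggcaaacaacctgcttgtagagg
LINC02593: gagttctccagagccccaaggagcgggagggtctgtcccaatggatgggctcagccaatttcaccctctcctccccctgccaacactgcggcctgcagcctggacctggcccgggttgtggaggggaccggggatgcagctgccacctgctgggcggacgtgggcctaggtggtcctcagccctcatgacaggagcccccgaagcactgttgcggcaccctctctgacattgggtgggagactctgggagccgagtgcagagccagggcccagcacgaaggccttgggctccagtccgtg
The RefSeq start used for the window of LINC03041 lay 134677 bp from the GENCODE gene start, and that of LINC02593 lay 1324 bp from it, so that the window may not be the start used in LNCaP cells. Their G and C content was 55.7% and 66.7%.

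**Figure D3:**
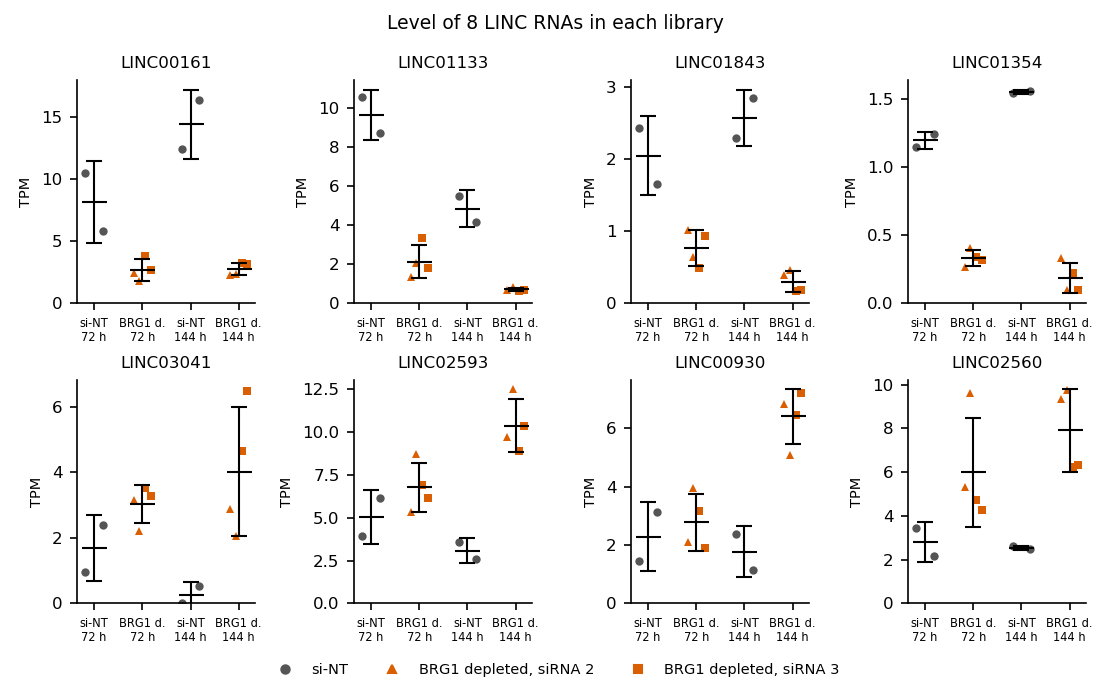
Level in TPM (linear axes from 0) of the 4 LINC RNAs that fell most and the 4 that rose most on the log2(TPM + 1) scale at 144 h, in every library. Circles are si-NT, triangles siRNA 2 and squares siRNA 3, with the mean and SD as bars, and at 144 h the BRG1 depleted and si-NT points of all 8 RNAs are apart. Choosing them by the test on these libraries favours that.

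LINC00342 (chr2:96472800-96500751, minus strand) was the RNA that was higher at both times. It was at 4.18 and 3.75 TPM in si-NT and 6.09, 6.86, 7.63 and 6.91 TPM after depletion at 72 h (0.66 ± 0.11 SE, adjusted p = 0.0178). After 144 h it was at 2.94 and 3.07 TPM against 7.45, 7.04, 8.12 and 7.82 TPM (1.10 ± 0.11 SE, adjusted p = 0.00013). The groups were apart at both times and its SE was small. It lies in a region with copies elsewhere, and a stretch of 1977 bases had 98.0% identity to another gene, so the locus that gave these reads is uncertain.

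Among the other RNAs of the 10 largest rises, LINC02560 (chr19:58911588-58912046, an RNA of 1 exon 825 bp from ZNF584 on the same strand) was at 2.61 and 2.47 TPM in si-NT and 9.34, 9.76, 6.22 and 6.34 TPM after depletion at 144 h (1.31 ± 0.28 SE, adjusted p = 0.00638). LINC02298 was at 0.18 and 0.04 TPM against 2.66, 1.09, 1.28 and 1.99 TPM (1.28 ± 0.36 SE), and LINC01814 at 0.04 and 0.05 TPM against 2.07, 2.12, 0.72 and 0.55 TPM (1.11 ± 0.34 SE). LINC01503 rose from 1.98 and 2.7 TPM to between 5.05 and 6.99 TPM (1.09 ± 0.34 SE, adjusted p = 0.038). Over 22 alternative fits LINC01503 lost its call at 144 h in 8, and LINC02298 and LINC01814 lost theirs in 7 each. LINC02560 lost its call in 2 of 23. Of these, LINC02298 and LINC01814 were nearly absent from si-NT cells at 144 h, whereas at 72 h si-NT replicate 2 held 1.36 and 0.47 TPM of them. At 144 h both reached 1 TPM in BRG1 depleted libraries only, which favours a rise. LINC01814 also holds a stretch of 350 bases with 98.0% identity to XACT, for which the counting could have split or dropped reads. LINC01341 (2.82 TPM in si-NT and 6.57 TPM after depletion on average, 0.99) and LINC01978 (0.68 and 2.27 TPM, 0.97) completed the 10. The other 9, LINC02035, LINC02600, LINC00886, LINC02986, LINC00622, LINC00853, LINC00957, LINC02361 and LINC00205, rose by between 0.51 and 0.92. LINC00957 shares a stretch of 412 bases with RASA4, a copy of which overlaps it on the opposite strand.

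All 5 RNAs called at 72 h (3.27% of the 153) were called at 144 h in the same direction. Over all genes tested 275 were called at 72 h, and 248 (1.52% of all genes tested) were called at both times in the same direction. Of the 30 called at 144 h, 28 had the same sign at 72 h, the exceptions being LINC01719 and LINC02986, and 28 were larger at 144 h, the exceptions being LINC01133 and LINC02198. Choosing RNAs by their call at 144 h favours a larger value there, and of all 3983 genes called at 144 h 3673 had the same sign at 72 h (92.2%, beside 93.3% of the 30) and 3865 were larger at 144 h. The 11 that fell had a median of -0.72 at 72 h and the 19 that rose a median of 0.38. The test of the difference between the times called 0 of the 153 with limma (0.0184% of all genes), with 13 at an unadjusted p under 0.05, so none was shown to respond differently at 144 h. Between the si-NT groups of 144 h and 72 h limma called 0 (0.0% of all genes), with 12 at an unadjusted p under 0.05.

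**Figure D4:**
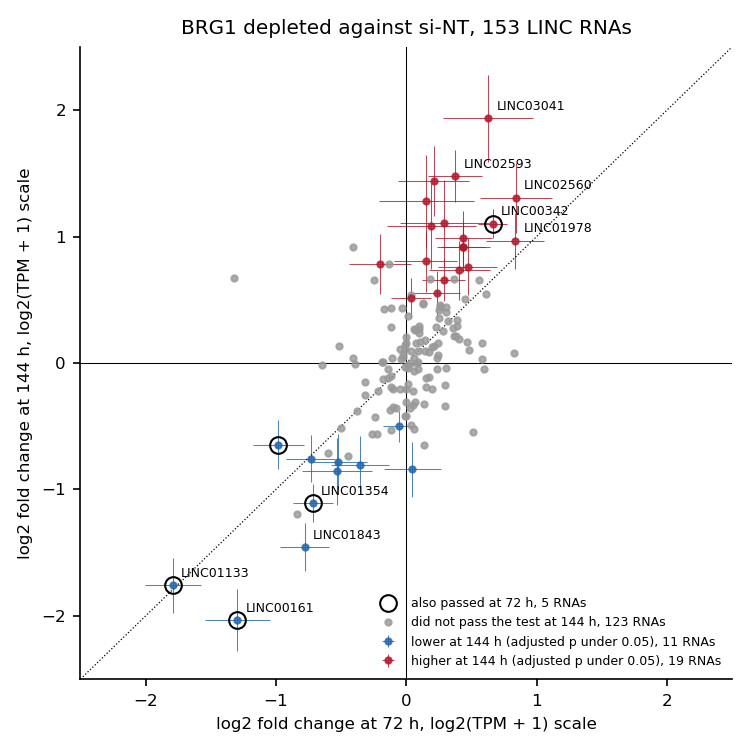
Log2 fold change of BRG1 depleted against si-NT at 144 h (vertical) against that at 72 h (horizontal) for the 153 LINC RNAs, with SE bars for the 30 called at 144 h and rings on the 5 also called at 72 h. The dotted line marks equal change, and 28 of the 30 lie farther from 0 at 144 h than at 72 h.

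The siRNAs were then compared, each against the same si-NT libraries and against each other. At 72 h siRNA 2 gave 3 lower and 0 higher LINC RNAs (0.63% and 0.937% of all genes) and siRNA 3 gave 1 lower and 2 higher (0.226% and 0.428%). At 144 h siRNA 2 gave 7 lower and 17 higher (7.67% and 13.6%) and siRNA 3 gave 12 lower and 12 higher (10.4% and 9.83%). Since the si-NT libraries are shared, the sets are not independent. Called with both in the same direction were 1 at 72 h (0.404% of all genes) and 14 at 144 h (13.1%), and 0 were called in opposite directions. The 14 were LINC00161, LINC01133, LINC01843 and LINC01354, which fell, and LINC03041, LINC02593, LINC02298, LINC02560, LINC00930, LINC01978, LINC00342, LINC02600, LINC01341 and LINC02035, which rose.

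Set against each other directly, siRNA 3 and siRNA 2 differed for 0 of the 153 at 72 h (0.141% of all genes) and 0 at 144 h (0.331%), with 11 and 26 at an unadjusted p under 0.05. The lowest p at both times was that of LINC03015, named here after its values were seen. It was at 2.58 and 2.37 TPM with siRNA 2 and 4.46 and 4.97 TPM with siRNA 3 at 72 h (0.72 ± 0.14 SE, adjusted p = 0.119), beside 2.08 and 2.18 TPM in si-NT. At 144 h it was at 3.44 and 4.02 TPM with siRNA 2 and 1.71 and 1.75 TPM with siRNA 3 (-0.79 ± 0.14 SE, adjusted p = 0.0608), beside 4.24 and 4.22 TPM in si-NT. The order of the siRNAs thus turned between the times. LINC00963 was lower with siRNA 3 (46.38 and 41.35 TPM) than with siRNA 2 (66.03 and 62.97 TPM) at 144 h, a difference of -0.55 ± 0.13 SE that did not pass (adjusted p = 0.138).

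By class, 30 of the 153 LINC RNAs, or 19.6%, were called at 144 h in either direction, beside 14.5% of 1407 other long non-coding RNA genes and 27.9% of 12075 protein-coding genes. Levels differ between the classes. Among genes with a mean under 5 TPM the shares were 21.6% of 111 LINC RNAs, 11.2% of 1067 other long non-coding RNA genes and 22.5% of 2580 protein-coding genes. Among LINC RNAs at 5 TPM or more the share was 14.3% of 42, beside 28.5% of all genes at that level. By position, 25.6% of the 82 within 50 kb of a protein-coding gene were called (6 lower and 15 higher), close to the 24.4% of all genes, and 15.9% of the 44 that lie farther away (5 lower and 2 higher). Called too were 1 of the 12 that start divergently (LINC00205, beside POFUT2) and 1 of the 15 that overlap a protein-coding gene (LINC03041). These shares were not tested against each other.

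The nearest protein-coding gene within 100 kb was then read for the called RNAs, and it was itself among the genes tested for 13 of the 19 that rose and 6 of the 11 that fell. Of the 13 neighbours of RNAs that rose, 7 were called higher (53.8%, against 13.6% of all genes) and 1 was called lower (7.69%, against 10.8%). Of the 6 neighbours of RNAs that fell, limma called 0 in either direction (against 24.4% of all genes), with 1 at an unadjusted p under 0.05, and 6 genes are too few to set that 0 apart from the share of all genes. Among 70 different neighbours of LINC RNAs without a call 20.0% were called higher and 15.7% lower. The counts are small, come from the same libraries and were not tested.

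The neighbour with the largest rise on the log2(TPM + 1) scale was ID2, an inhibitor of basic helix-loop-helix factors, 85942 bp from LINC01814. Its mean was 26.67 ± 6.56 TPM (SD, n = 2) in si-NT and 207.2 ± 111 TPM (SD, n = 4) after depletion at 144 h (2.80 ± 0.49 SE, adjusted p = 0.00236). SAMD11, 2907 bp from LINC02593 on the other strand, had 12.39 ± 1.63 TPM (SD, n = 2) without depletion at 144 h and 25.56 ± 4.44 TPM (SD, n = 4) with it, and rose by 0.98 ± 0.16 SE on the log2 scale. FAM174B (42919 bp from LINC00930, 0.58), TBC1D16 (6325 bp from LINC01978, 0.47) and SCCPDH (7743 bp from LINC01341, 0.37) were also higher. Outside the 10 largest rises, and named after their values were seen, ADRA2C beside LINC02600 was higher (2.15), DBNL beside LINC00957 was higher (0.35) and PDZK1IP1 beside LINC00853 was lower (-1.11). ZNF584, the closest same-strand neighbour, at 825 bp from LINC02560, was at -0.33 (adjusted p = 0.0944). Beside RNAs that fell, JADE2 was at -0.39 and TARBP1 at -0.37, and neither passed (adjusted p = 0.262 and 0.0828).

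**Figure D5:**
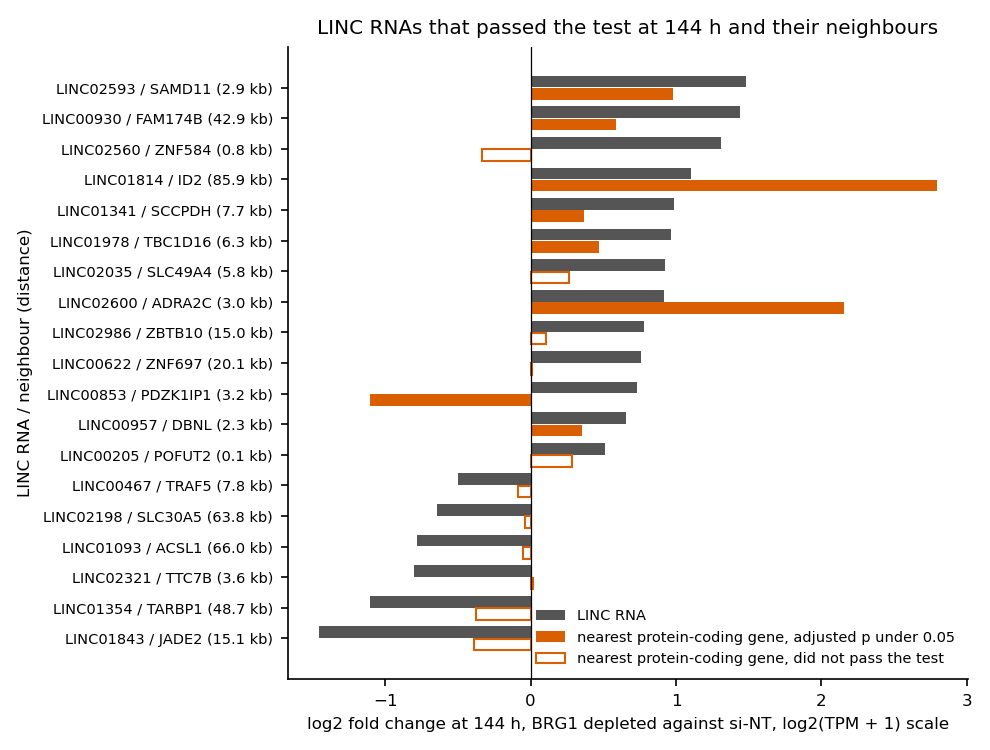
Log2 fold change at 144 h of the called LINC RNAs (grey) whose nearest protein-coding gene within 100 kb was tested, and of that gene (orange, filled where its adjusted p was under 0.05), with the distance between gene bodies. Of the 13 neighbours beside RNAs that rose 7 are filled bars to the right and 1 to the left, and the 6 beside RNAs that fell are open.

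RefSeq promoters were found for 104 of the 152 symbols, with 116 entries, and 6 motifs were searched on both strands. The median G and C content was 62.0% in the 116 windows, 58.7% in all 35116 and 47.7% in the 1742 of LINC-named genes. AGAACA was in 21.6% of the 116 windows (14.8% of all windows and 23.0% of those of LINC-named genes), the forkhead core TGTTTAC in 6.9% (3.42% and 4.65%) and the AP-1 site TGANTCA in 6.03% (7.71% and 13.5%). The E box CACGTG was in 10.3% (7.26% and 5.11%), the E2F site TTTGGCGC in 0.862% (0.652% and 0.344%) and TTTCCCGC in 2.59% (1.63% and 0.976%). Among the 10 windows of RNAs that fell at 144 h 5 held AGAACA and 1 held TGTTTAC, and among the 14 of RNAs that rose 4 and 1 did. Shares over so few windows, of unequal base composition, were not tested.

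Nuclear decay and 3′ processing set the level of many long non-coding RNAs, and 25 genes of that machinery (the RNA exosome, its nuclear helper complexes, the cap-binding complex and the cleavage enzymes CPSF3 and INTS11) were all among the genes tested. At 72 h limma called 0 of the 25 (against 1.68% of all genes), with 1 at an unadjusted p under 0.05. At 144 h 8 were lower and 0 higher, beside 10.8% and 13.6% of all genes. The 8 were the exosome genes EXOSC2, EXOSC3, EXOSC5, EXOSC6, EXOSC8 and EXOSC9, with the cap-binding gene NCBP1 and the nuclease gene CPSF3, and their log2 fold changes ran from -0.65 (EXOSC8) to -0.39 (NCBP1). The median over the 25 was -0.21, and -0.60 with the spike-ins held equal, under which limma called 0, with 11 at an unadjusted p under 0.05.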

How the data were processed

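RNA-seq of LNCaP cells was taken as the table of TPM values that the authors deposited, 12 libraries by 63568 genes and 92 ERCC spike-in lines. Per the study's methods and the submitters' processing notes, the authors added ERCC RNA to 500 ng of total RNA, made stranded, paired-end mRNA libraries, trimmed reads with Trim Galore, aligned them to hg19 (GRCh37) with STAR 2.4.0j and counted them with featureCounts on GENCODE v19. The strand setting and the tool that gave the TPM values are not given in the sources used here. A TPM table keeps no depth, so the depth per library is unknown and no counting interval is given. Spike-ins held between 0.805% and 1.97% of a library. No pair of libraries held identical values.

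Symbols came from GENCODE v44 lifted to GRCh37, which matched 55665 genes (87.6%). The 16337 genes that reached 1 TPM in 2 or more libraries entered limma 3.58.1 (R 4.3.3) on log2(TPM + 1), with 4 groups over all 12 libraries, a trend on mean level and Benjamini-Hochberg adjustment over all of them. Each siRNA was tested with 6 groups. A change was called at an adjusted p under 0.05. Copies were searched with BLASTN 2.17.0 and plots drawn with matplotlib 3.10.9.

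The RNAs, the lists and the motifs were chosen with earlier results of these data known. Named were, per time, up to 10 called RNAs that fell most and up to 10 that rose most, with the nearest protein-coding gene within 100 kb, the 10 highest RNAs, a list of 18 RNAs with a cancer literature, 25 RNA decay genes, the RNAs at the 1 TPM limit, SMARCA4, and markers of luminal, basal, stromal, endothelial and leukocyte cells. Of 2 endothelial markers VWF was at or under 0.77 TPM and PECAM1 was not analysed here. Some luminal markers are not reported here. Alternatives were another pseudocount, scalings, filters, fits, thresholds and each library left out.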

Additional observations from a re-analysis of the deposited data

Results flagged for a closer look

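In 62 groups of 4 BRG1 depleted libraries, 31 named RNAs at each time, Dixon's test set 2 values apart from the other 3 libraries, and chance flags about 1 in 20 groups. LINC00467 was at 56.47 TPM in BRG1 depleted 72 h siRNA 3 replicate 1, while the others lay between 50.63 and 51.08 TPM. LINC01093 was at 0.3 TPM in BRG1 depleted 144 h siRNA 2 replicate 2, while the others were listed at 0.0 TPM.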

How the results depend on the processing

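Counts are given as at 72 h lower and higher, at 144 h lower and higher, and called at both times, with 4, 1, 11, 19 and 5 as reported. ERCC scaling gave 1, 0, 7, 1 and 1, the 0.01 threshold 1, 0, 4, 9 and 1, a log2 fold change also beyond 1 gave 2, 0, 4, 8 and 2, a mean of at least 5 TPM 1, 1, 3, 4 and 2, and RNAs overlapping no other gene 0, 1, 5, 11 and 1. A pseudocount of 0.1 gave 2 lower at 72 h and 3 at both, quantile normalisation 20 lower at 144 h, no filter 10 higher at 144 h, and no trend 2 higher at 72 h and 1 that differed between the siRNAs. With only the 6 libraries of 72 h 0 were lower and 0 higher there. With si-NT of both times combined 7 were lower and 6 higher at 72 h and 18 were lower at 144 h. Without RNAs that have a near-identical copy, an alternative chosen after seeing the data, 0 were higher at 72 h. The cause of these moves was not tested, except that fewer RNAs or libraries entered where the setting says so.

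The labels do not say whether replicate numbers pair the libraries, and the main fit used no pairing. Of 15 correlations of replicate deviations 2 were over 0.1 (range -0.229 to 0.3), which cannot settle whether replicates shared a batch. The replicate block gave 2 lower at 72 h and 3 called at both times, and left the counts of 144 h at 11 and 19. Over all genes at 72 h it gave 58 lower and 121 higher, against 91 and 184 without it. Leaving out each library in turn gave 1 to 5 lower and 0 to 1 higher at 72 h, 5 to 14 lower and 4 to 20 higher at 144 h, and 1 to 6 at both times. The counts of RNAs that differed between times, between siRNAs and between si-NT groups were 0 in those fits.

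LINC00161 kept its call at 144 h over 23 refits, and LINC01133, LINC01843, LINC01354 and LINC03041 kept theirs over the 22 that included them, since a mean of at least 5 TPM left them out. LINC01354 reached 1 TPM in si-NT libraries only, which favours a fall, and a fit without the filter was among the refits. The RNAs that kept their call at 144 h were 5 of 21 named RNAs called there, and 0 of the 5 called at 72 h kept the call in every refit. Values that changed sign were of RNAs without a call at 72 h. LINC01719 was at -0.006 with median-of-ratios factors and -0.003 with quantile normalisation, -0.107 with ERCC scaling and -0.249 with si-NT combined, and ran from -0.383 to 0.478 over the libraries left out. The same range was -0.191 to 0.087 for LINC00467, -0.162 to 0.581 for LINC00930, -0.314 to 0.701 for LINC01503 and -0.115 to 0.415 for LINC02298. With unknown depth, RNAs near 1 TPM cannot be given a counting error.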

Other observations

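Some LINC RNAs without a call moved between libraries rather than between groups, and they are named here after their values were seen. LINC01783 was at 3.89 TPM in BRG1 depleted 72 h siRNA 2 replicate 2 and at 4.97 TPM in BRG1 depleted 144 h siRNA 3 replicate 2, and at or under 0.11 TPM in the other 10 libraries. It holds a stretch of 1548 bases with 98.0% identity to a gene elsewhere. LINC00674 was at 6.8 TPM in BRG1 depleted 144 h siRNA 2 replicate 1 and between 0.63 and 1.25 TPM in every other library. LINC02585, which starts divergently from CELSR3, was listed at 0 in 8 libraries and at 0.96 to 2.12 TPM in the others, all of which are replicate 1 libraries.

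LINC02193 had the second largest change at 72 h without passing the test. It was at 14.93 and 10.53 TPM in si-NT and at 3.28, 3.86, 6.35 and 4.69 TPM after depletion at 72 h (-1.32, adjusted p = 0.172), and at 5.29 and 4.63 TPM against 15.78, 8.83, 11.1 and 3.08 TPM at 144 h (0.67, adjusted p = 0.287). Its transcripts share near-identical stretches with 30 genes elsewhere.

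For LINC00662, LINC00667, LINC03015 and LINC01194 every BRG1 depleted library lay on 1 side of the si-NT mean at 72 h and on the other side at 144 h. The test of the difference between the times did not pass for any of them, with adjusted p from 0.368 to 0.474. LINC00662 was at -0.17 at 72 h and 0.43 at 144 h, and LINC03015 at 0.51 and -0.54.

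Over all 153 RNAs, 24 of 306 groups of 4 depleted libraries (7.84%) held an outlier by Dixon's test, and 11 of the 24 were in BRG1 depleted 72 h siRNA 2 replicate 2.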
